A study of Mus musculus with 8 samples.

Results

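Sinusoidal endothelial cells line the capillaries of the liver, and 10 genes that mark them were followed over 4 groups of mouse livers. The genes were Stab1, Stab2, Dnase1l3, Eng, Tek, Kdr, Pecam1, Cdh5, Lyve1 and Clec4g. Each was found by its symbol in the platform annotation, which gave 11 transcript clusters (the array's unit for a gene) of 35556 in all, and 10 genes of 19938. Clec4g had 2 clusters and every other gene had 1. All 10 genes lay among the 11963 genes tested, the 60% with the highest mean signals.

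RNA came from livers of 40 male C57Bl/6J mice and was hybridised to 8 Affymetrix arrays. The HFD+As group ate a high-fat diet with 42% of calories from fat and drank deionized water with sodium arsenite (3 mg inorganic arsenic per litre). The HFD group had the same diet with plain deionized water. The LFD+As group ate a low-fat diet with 13% of calories from fat and drank the arsenite water, and the LFD group had the low-fat diet with plain water. The treatment protocol gives 10 weeks of exposure and the source label gives 90 days, which was not resolved. Each array held equal amounts of RNA from 5 mice, so that 10 mice per group gave 2 arrays, called replicate 1 and replicate 2. The spread between arrays is therefore a spread between pools of 5 mice.

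The liver sinusoid has an endothelium with open pores and no continuous basement membrane, through which plasma reaches the hepatocytes. These cells clear macromolecules from blood by scavenger receptors and endocytic lectins. They are maintained by vascular endothelial growth factor from hepatocytes and by bone morphogenetic protein signals, and loss of their special features, called capillarization, is a known early event of liver disease. Stab1, Stab2, Dnase1l3, Lyve1 and Clec4g are features of the sinusoidal type, whereas Eng, Tek, Kdr, Pecam1 and Cdh5 are shared with most blood endothelium. Stab1 is also made by some macrophages and Lyve1 by lymphatic endothelium.

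The genes lie apart in the mouse genome, at positions given here for assembly GRCm38.p6 from the RefSeq annotation. Stab1 lies at chr14:31139017-31168651, Dnase1l3 at chr14:7965187-7994760, and Stab2 at chr10:86841194-87008038. Eng lies at chr2:32646595-32682669, Tek at chr4:94739086-94874976 and Kdr at chr5:75932827-75979072. Pecam1 lies at chr11:106654213-106715281, Cdh5 at chr8:104101613-104144504, Lyve1 at chr7:110850607-110862953 and Clec4g at chr8:3707066-3720695. Their genomic spans, introns included, ran between 12.3 kb for Lyve1 and 166.8 kb for Stab2.

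RefSeq promoter windows (GRCm38.p6) were given for 6 of the 10 genes, Stab1, Stab2, Eng, Tek, Kdr and Clec4g. The letters AGGAAG, the core that ETS factors of endothelium bind, occurred on either strand within the 250 bases before the start of Stab1, Stab2, Eng and Clec4g. This was 4 of 6 genes, while 29.5% of 32851 promoters held the letters. ACAAAG, a SOX core, occurred in Eng and Tek, against 16.5% of promoters. The GATA core AGATAA, the forkhead letters TGTTTAC and the E-box CACGTG occurred in 0 of the 6, and in 9.99%, 3.17% and 6.02% of all promoters. A match describes letters and not binding. The windows of the 4 genes with an AGGAAG match are shown, of which Stab1, Stab2 and Eng fell in HFD+As and Clec4g did not. Tek and Kdr fell too, but their windows hold no AGGAAG and are not shown. Of the 250 bases, 203 in Tek and all 250 in Kdr lie inside the annotated gene. The Tek match to ACAAAG, 26 to 21 bases before the start given by its window, is among them. The bases outside the annotated gene are printed 5′ to 3′ on the gene's strand, with AGGAAG, its reverse complement CTTCCT and ACAAAG in capitals. The Stab1 stretch is chr14:31168652-31168891 on the minus strand, Stab2 is chr10:87008039-87008192 on the minus strand, Eng is chr2:32646345-32646594 on the plus strand and Clec4g is chr8:3720696-3720901 on the minus strand. In Stab2 the match lay 40 to 35 bases before the start given by that window, which falls inside the annotated gene and is not printed. Both Clec4g matches in the forward direction overlap.
Stab1: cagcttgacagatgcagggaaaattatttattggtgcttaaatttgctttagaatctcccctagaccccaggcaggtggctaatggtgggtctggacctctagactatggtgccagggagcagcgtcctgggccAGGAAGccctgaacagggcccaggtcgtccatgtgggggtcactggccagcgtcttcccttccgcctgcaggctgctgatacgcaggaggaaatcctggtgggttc
Stab2: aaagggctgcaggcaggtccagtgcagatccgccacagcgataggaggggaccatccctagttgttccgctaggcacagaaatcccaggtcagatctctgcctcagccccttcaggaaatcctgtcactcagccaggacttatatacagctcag
Eng: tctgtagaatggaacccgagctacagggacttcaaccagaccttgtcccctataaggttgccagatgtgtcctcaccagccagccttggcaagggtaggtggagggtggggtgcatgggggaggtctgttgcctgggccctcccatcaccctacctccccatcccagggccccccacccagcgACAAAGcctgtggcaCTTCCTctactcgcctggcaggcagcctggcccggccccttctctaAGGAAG
Clec4g: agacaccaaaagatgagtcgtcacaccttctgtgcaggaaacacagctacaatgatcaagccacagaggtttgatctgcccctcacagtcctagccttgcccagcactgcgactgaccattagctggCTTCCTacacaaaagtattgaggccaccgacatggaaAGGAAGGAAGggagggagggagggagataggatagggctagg

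High-fat diet with arsenite against the low-fat control set the group with both exposures beside the group with neither. Of the 10 markers, 7 fell in HFD+As, to between 53.1% and 66.7% of the LFD signal, and 0 rose (limma, adjusted p under 0.05, n = 2 pools per group). Stab2, Dnase1l3, Eng, Tek, Kdr, Stab1 and Cdh5 fell, and Pecam1, Lyve1 and Clec4g did not pass the test. Among all tested genes, 16.0% passed in either direction and 12.4% passed as lower. The median difference of the markers was -0.65 log2 units, beside -0.10 for all tested genes. Because the markers were chosen with earlier results of these data known, these contrasts with all genes describe the list and do not test it. In bulk liver RNA, fewer endothelial cells and less of each RNA per cell cannot be told apart. P-values here measure the spread between pools and not between mice.

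**Figure D1:**
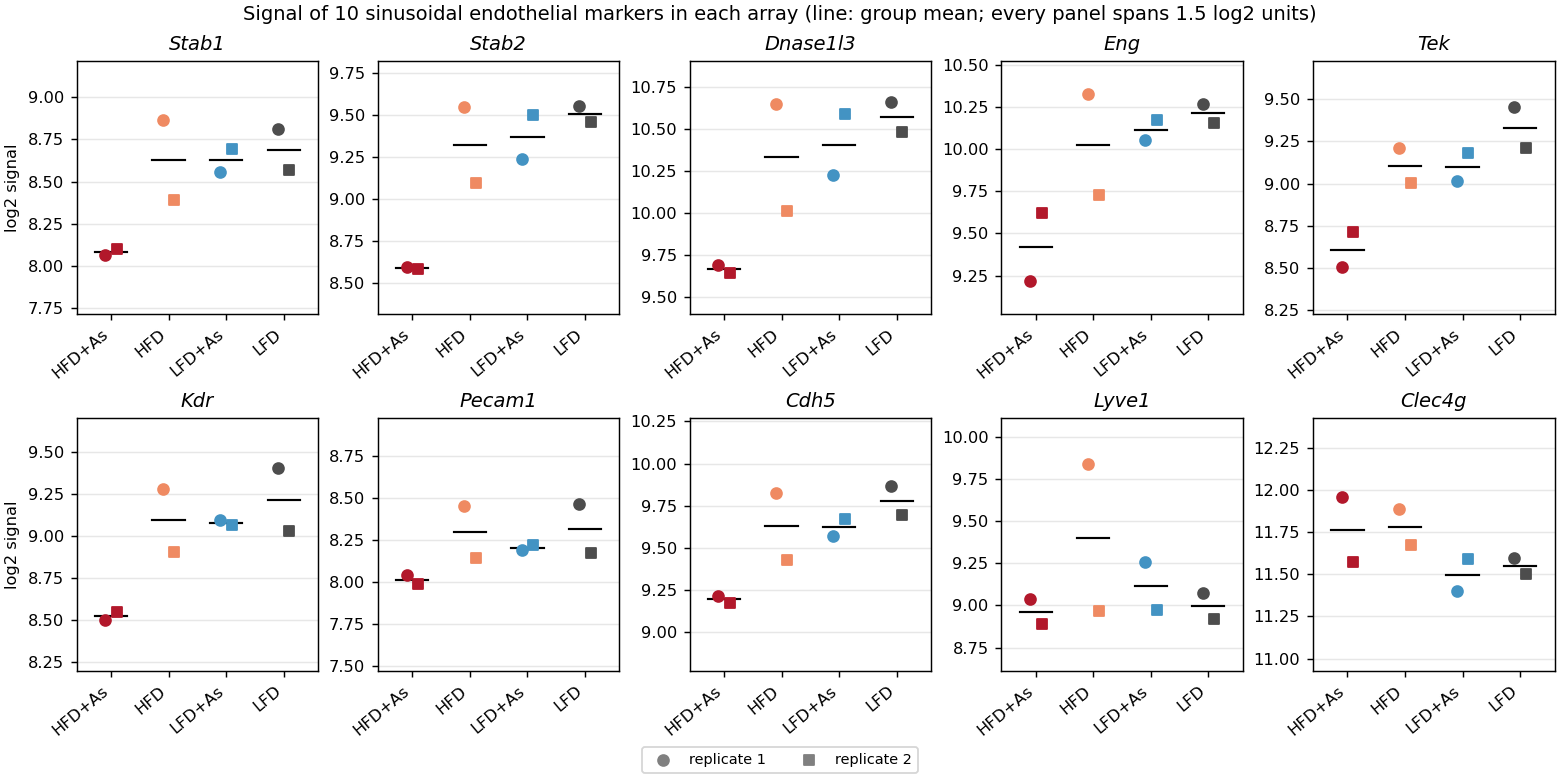
Log2 signal of each marker (vertical axis) in the 8 arrays, by group; circles are replicate 1, squares replicate 2, lines group means, and every panel covers the same number of log2 units. In 8 of 10 markers, and in 27.8% of all tested genes, both HFD+As arrays lay below the 6 others. Lyve1 and Clec4g did not follow.

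Both stabilins, large scavenger receptors that take up waste molecules, fell. Stab2 had log2 signals of 8.60 and 8.59 in HFD+As, 9.55 and 9.10 in HFD, 9.24 and 9.50 in LFD+As, and 9.55 and 9.46 in LFD. Both HFD+As arrays were nearly equal and stood below every other array by more than the spread within any group. Relative to LFD, Stab2 fell by 0.91 on the log2 scale (SE 0.149, adjusted p = 0.00420), to 53.1% of the LFD signal. Stab1, its close relative, had 8.06 and 8.10 in HFD+As, 8.87 and 8.39 in HFD, 8.56 and 8.69 in LFD+As, and 8.81 and 8.57 in LFD. The HFD+As arrays were again lowest, and the other 3 groups overlapped. The decrease of Stab1 against LFD was -0.61 (SE 0.152, adjusted p = 0.0188).

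Dnase1l3 encodes a secreted nuclease that degrades circulating chromatin and DNA in lipid complexes. Its log2 signals were 9.69 and 9.65 in HFD+As, 10.65 and 10.02 in HFD, 10.23 and 10.59 in LFD+As, and 10.66 and 10.49 in LFD. HFD replicate 2 came nearest to the HFD+As arrays but lay above both, and the other 3 groups overlapped. Dnase1l3 fell by 0.90 log2 units in HFD+As against LFD (SE 0.181, adjusted p = 0.00815), which left 53.5% of the LFD signal.

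The 3 signalling receptors of the list all fell. Eng, the endoglin co-receptor for bone morphogenetic proteins and transforming growth factor beta, had 9.22 and 9.62 in HFD+As, 10.33 and 9.73 in HFD, 10.06 and 10.17 in LFD+As, and 10.27 and 10.16 in LFD. The HFD+As arrays differed by 0.41, the widest gap of any marker within that group, and the higher one lay just under HFD replicate 2. Eng fell by 0.79 against LFD (SE 0.180, adjusted p = 0.0128).

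Tek encodes Tie2, the receptor of angiopoietins. Tek had 8.50 and 8.71 in HFD+As, 9.21 and 9.0 in HFD, 9.01 and 9.18 in LFD+As, and 9.45 and 9.21 in LFD. Tek was the marker in which the LFD arrays also lay above all arrays of the single exposures, though narrowly for HFD. The decrease in HFD+As against LFD was -0.72 (SE 0.135, adjusted p = 0.00630). Kdr encodes the main receptor of vascular endothelial growth factor A. It had 8.50 and 8.55 in HFD+As, 9.28 and 8.90 in HFD, 9.09 and 9.06 in LFD+As, and 9.40 and 9.03 in LFD. HFD, LFD+As and LFD overlapped, and HFD+As lay apart. Kdr fell by 0.69 against LFD (SE 0.149, adjusted p = 0.0105).

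Of the junction genes, one passed the test. Cdh5, the cadherin of endothelial adherens junctions, had 9.22 and 9.17 in HFD+As, 9.82 and 9.43 in HFD, 9.57 and 9.67 in LFD+As, and 9.87 and 9.69 in LFD. The decrease of Cdh5 against LFD was -0.58 (SE 0.138, adjusted p = 0.0147). Pecam1, an adhesion molecule at contacts between endothelial cells, had 8.04 and 7.99 in HFD+As, 8.45 and 8.15 in HFD, 8.19 and 8.22 in LFD+As, and 8.46 and 8.17 in LFD. Its HFD+As arrays were the lowest of the 8, but HFD replicate 2 and LFD replicate 2 lay close above them. The Pecam1 difference of -0.30 (SE 0.136) did not pass (adjusted p = 0.149).

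Lyve1 and Clec4g, a hyaluronan receptor and a C-type lectin, did not follow the other 8. Lyve1 had 9.04 and 8.89 in HFD+As, 9.84 and 8.97 in HFD, 9.25 and 8.97 in LFD+As, and 9.07 and 8.92 in LFD. HFD replicate 1 stood above the other 7 arrays, which overlapped between groups. The Lyve1 difference of HFD+As against LFD was -0.03 (SE 0.212, adjusted p = 0.940). Clec4g had 11.96 and 11.57 in HFD+As, 11.89 and 11.67 in HFD, 11.40 and 11.59 in LFD+As, and 11.60 and 11.50 in LFD. Both groups on the high-fat diet had the higher means, and the HFD+As and LFD arrays overlapped. The Clec4g difference was 0.22 (SE 0.144, adjusted p = 0.338). The other Clec4g cluster was dim, with 6.35 and 6.39 in HFD+As, 6.40 and 6.13 in HFD, 6.32 and 6.44 in LFD+As, and 6.74 and 6.65 in LFD. It lay below the lowest mean tested, 6.975, and its difference of HFD+As against LFD was -0.32 (adjusted p = 0.257 in a fit over all clusters), opposite in sign to the brighter cluster.

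The order of group means was alike in most markers. HFD+As had the lowest mean in 9 of 10 markers, Clec4g being the exception, and LFD the highest in 8 of 10. Over all tested genes these orders were not counted. Among those genes the HFD+As mean lay below that of LFD in 66.6%, of HFD in 72.3% and of LFD+As in 65.6%. Both HFD+As arrays lay below all 6 other arrays in 8 markers, as they did in 27.8% of all tested genes. The arrays of HFD, LFD+As and LFD overlapped in Stab1, Stab2, Dnase1l3, Eng, Kdr and Pecam1, so the order of those 3 groups was not resolved. From high to low, Clec4g was ordered HFD, HFD+As, LFD and LFD+As, with HFD+As overlapping LFD and LFD+As. In Tek, LFD lay above the other groups without overlap, and in Cdh5, LFD lay above LFD+As but overlapped HFD.

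The calls depended on single arrays. Stab2 was called lower in all 19 alternative analyses of HFD+As against LFD, with differences from -0.96 to -0.64. Without HFD+As replicate 1, or without LFD replicate 1, Stab2 was the 1 marker of 10 that passed. Calls among all tested genes dropped with it, to 206 without HFD+As replicate 1, 139 of them lower, and to 357 without LFD replicate 1, 145 of them lower, against 1909 and 1479 with all arrays. The difference itself stayed negative in every analysis for each of the 7 called markers, with the smallest, -0.40, in Cdh5.

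The array signals also followed the genomic span of genes, so each marker was set beside genes of like span. Across genes, the deviations from the gene means correlated with span at a rank correlation of -0.454 and -0.293 in HFD+As, 0.245 and -0.136 in HFD, 0.220 and 0.346 in LFD+As, and 0.342 and 0.138 in LFD. HFD+As arrays were thus lower in long genes relative to short ones. In HFD+As against LFD, the median difference of all tested genes ran between 0.06 in the decile with the shortest genes and -0.27 in the decile with the longest. The 7 called markers had spans of 29.6 kb and above and lay below the median of their span decile, while Lyve1 and Clec4g, the shortest at 12.3 and 13.6 kb, lay near and above it. Pecam1, at 61.1 kb, had a difference of -0.30 where the median of its decile was -0.18.

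**Figure D2:**
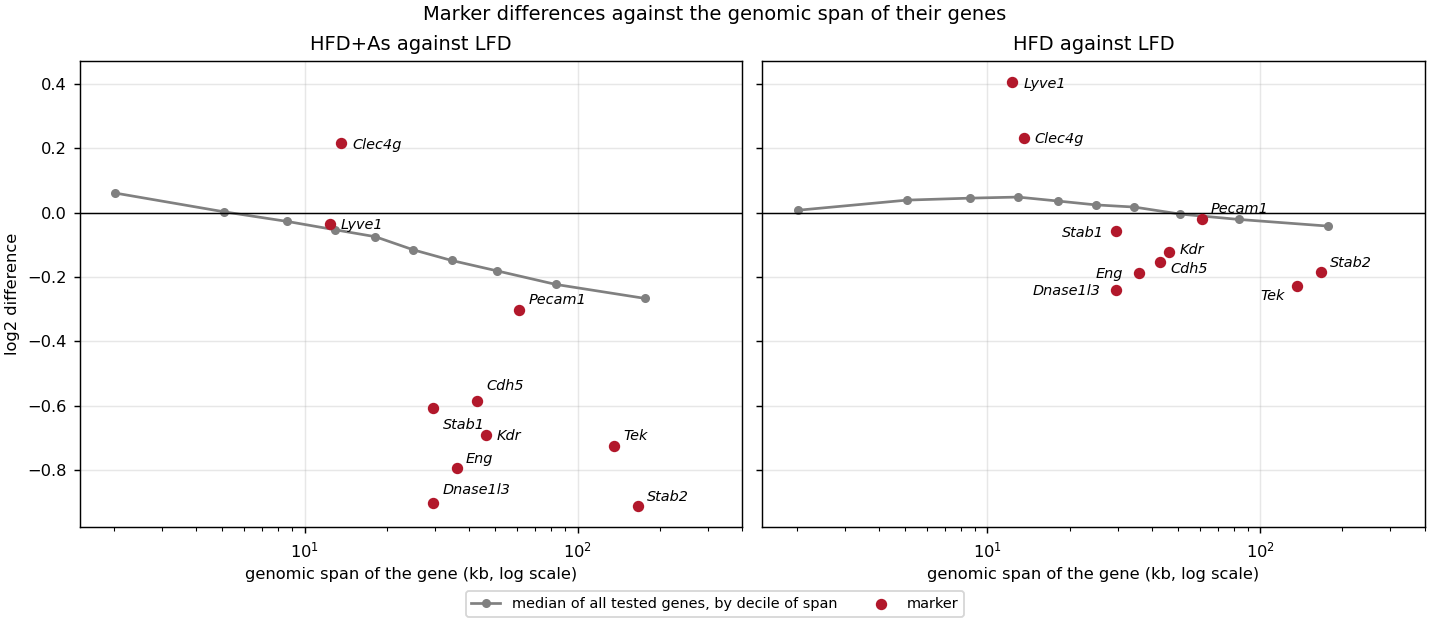
Log2 difference (vertical axis) against genomic span in kb on a log scale, for HFD+As against LFD and HFD against LFD; red points are markers and the grey line joins the medians of span deciles of all tested genes. At HFD+As against LFD the grey line declines to -0.27 while 7 markers lie between -0.91 and -0.58.

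When a smooth trend on span was subtracted from each array, the same 7 markers passed as lower in HFD+As against LFD. Under this correction 9.49% of all tested genes passed, and 4.92% passed as lower. The median of the markers was then -0.46, beside 0.00 for all genes. Among these 7 the subtracted trend was between 15.9% of the difference, in Dnase1l3, and 36.4%, in Tek. Dnase1l3 kept -0.76 (adjusted p = 0.0240), Stab2 -0.64 (adjusted p = 0.0170), Eng -0.63 (adjusted p = 0.0377), Kdr -0.50 (adjusted p = 0.0294), Stab1 -0.46 (adjusted p = 0.0468), Tek -0.46 (adjusted p = 0.0253) and Cdh5 -0.40 (adjusted p = 0.0485). Stab1 and Cdh5 lay close to the threshold. Pecam1 was left with -0.09, so most of its difference went with span. Both HFD+As arrays stayed below the 6 others in 7 markers, all but Pecam1, Lyve1 and Clec4g, beside 13.4% of all tested genes.

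**Figure D3:**
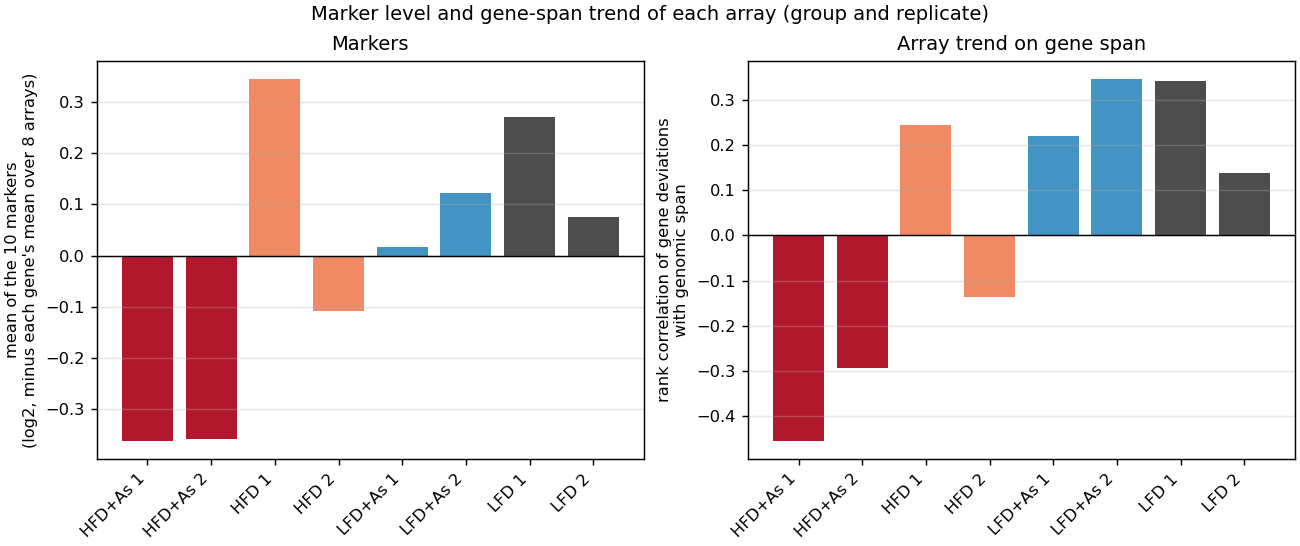
Left, mean of the 10 markers in each array after subtraction of each gene's mean over 8 arrays (log2 units); right, rank correlation of the array's gene deviations with genomic span. HFD+As arrays have both the lowest marker means, -0.36 each, and the most negative span correlations.

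Arrays with a lower span correlation mostly had lower marker levels. The mean centred signal of the 10 markers was -0.36 and -0.36 in HFD+As, 0.34 and -0.11 in HFD, 0.02 and 0.12 in LFD+As, and 0.27 and 0.08 in LFD. Within the HFD group, replicate 1 had the higher span correlation and was higher than replicate 2 in all 10 markers, by 0.21 for Tek to 0.87 for Lyve1. Within the LFD group, replicate 1 was again higher in all 10, by 0.09 for Stab2 to 0.37 for Kdr. In LFD+As, replicate 2 was higher in 8 markers, and in HFD+As replicate 1 was higher in 6. After the trend was removed, the marker means were -0.21 and -0.26 in HFD+As, 0.24 and -0.11 in HFD, -0.02 and 0.08 in LFD+As, and 0.17 and 0.10 in LFD. HFD+As remained lowest, and the gap between the HFD replicates remained wide.

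Arsenite within the high-fat diet was examined by HFD+As against HFD. All 10 marker differences were negative, as were 72.3% of those of all tested genes. The marker median was -0.52, beside -0.13 for all tested genes. Stab2 fell by 0.73 log2 units (SE 0.149, adjusted p = 0.0289), to 60.4% of the HFD signal, and was the 1 marker called. Across the array, 3.63% of tested genes passed, 3.25% as lower. Differences of the markers just short of the threshold were -0.57 in Kdr (adjusted p = 0.0522), -0.50 in Tek (adjusted p = 0.0576), -0.66 in Dnase1l3 (adjusted p = 0.0583), -0.55 in Stab1 (adjusted p = 0.0604) and -0.61 in Eng (adjusted p = 0.0685). Of the 10 markers 7 had an unadjusted p under 0.05, as had 3140 of the 11963 tested genes. Clec4g differed by -0.02. The count turned on single arrays, with 8 markers passing without HFD replicate 2, 2 without either LFD+As array, and 0 without HFD replicate 1, either HFD+As array or either LFD array. Over all tested genes the calls, 434 with every array, numbered 1121 without HFD replicate 2, 410 without either LFD+As array and 25 without HFD replicate 1. They numbered 24 without HFD+As replicate 1, 423 without HFD+As replicate 2 and 135 without either LFD array. After removal of the span trend, 0 markers and 43 tested genes passed, and Stab2 had -0.49 (adjusted p = 0.119).

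High-fat diet under arsenite was examined by HFD+As against LFD+As. Here 6 markers fell, Stab2 by 0.77 (SE 0.149, adjusted p = 0.0167), Dnase1l3 by 0.74 (SE 0.181, adjusted p = 0.0285), Eng by 0.69 (SE 0.180, adjusted p = 0.0340), Kdr by 0.55 (SE 0.149, adjusted p = 0.0372), Stab1 by 0.54 (SE 0.152, adjusted p = 0.0408) and Tek by 0.49 (SE 0.135, adjusted p = 0.0400). Among all tested genes 10.3% passed, 8.43% as lower. Cdh5 was short of the threshold at -0.43 (adjusted p = 0.0632), and Clec4g was the 1 positive difference, 0.27 (adjusted p = 0.244). After removal of the span trend 0 markers and 63 tested genes passed, with Stab2 closest at -0.52 (adjusted p = 0.0619). Without HFD+As replicate 1, or without LFD+As replicate 2, 0 passed, while 3 passed without HFD+As replicate 2 and 2 without LFD+As replicate 1. Calls among all tested genes were 31, 17, 1228 and 471 in these 4 fits, against 1227 with all arrays. This comparison and the one with LFD share the HFD+As arrays.

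**Figure D4:**
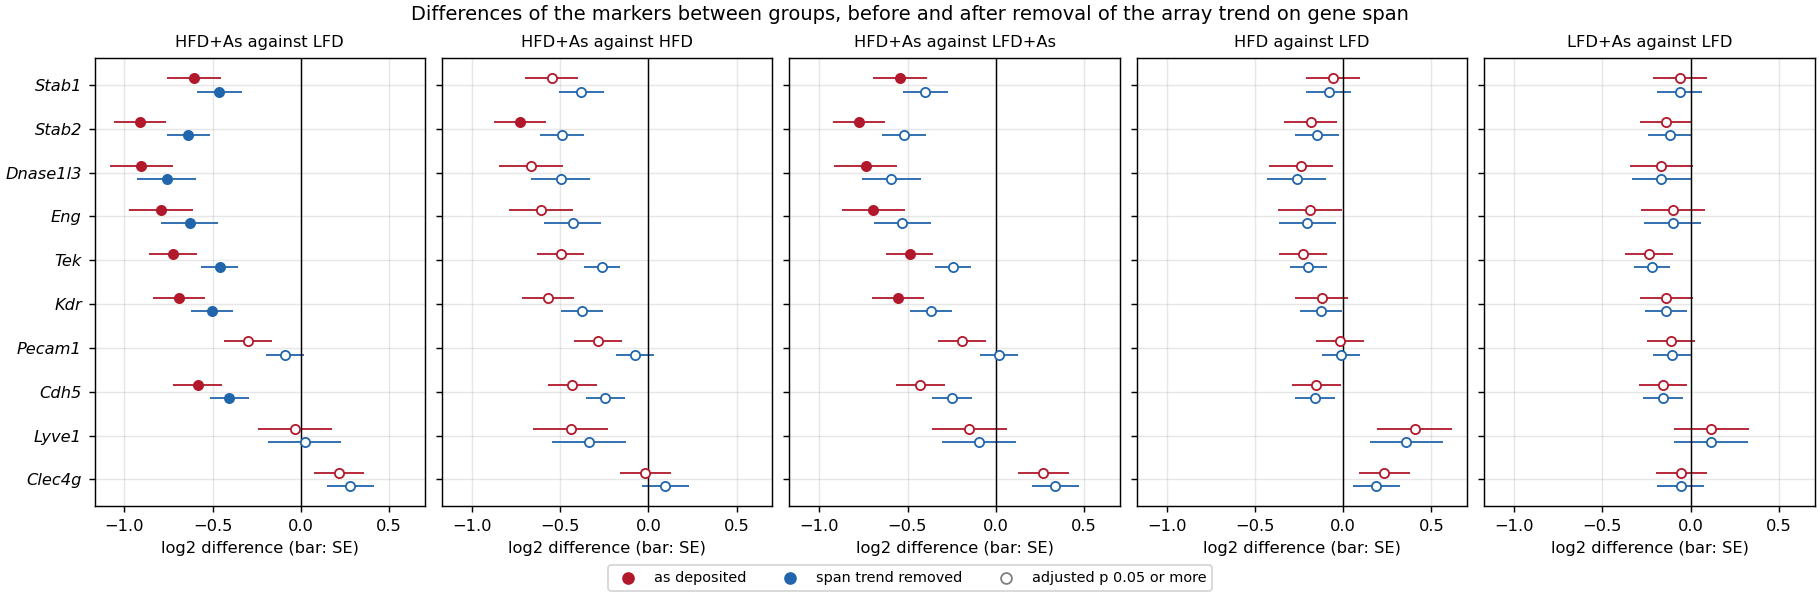
Log2 difference of each marker (horizontal axis, bar: SE) in 5 comparisons, as deposited (red) and after removal of the span trend (blue); filled points have an adjusted p under 0.05. Filled blue points appear for 7 markers at HFD+As against LFD, and the single exposures have no filled points.

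Neither single exposure moved a marker past the threshold. In HFD against LFD, 0 of 10 markers passed with limma, while 0.460% of all tested genes did. At an unadjusted p under 0.05 stood 0 markers and 1232 tested genes. The median was -0.14, and its sign rested on the HFD arrays, at -0.32 without HFD replicate 1 and 0.10 without HFD replicate 2. Dnase1l3 had the lowest difference, -0.24 (SE 0.181), and Lyve1 the highest, 0.41 (SE 0.212, adjusted p = 0.547). The Lyve1 value came from HFD replicate 1, and without that array it was -0.03. Clec4g differed by 0.23 (SE 0.144, adjusted p = 0.632). In LFD+As against LFD, 0 of 10 passed with limma, with 0.0669% of all tested genes passing, and 0 markers and 401 tested genes had an unadjusted p under 0.05. The median was -0.12, and values lay between -0.24 in Tek (SE 0.135) and 0.12 in Lyve1 (SE 0.212). A difference that misses the threshold with 2 pools a group does not show that a marker was unaffected.

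Whether arsenite acted differently on the 2 diets was tested by the interaction, which takes the arsenite effect on LFD away from the effect on HFD. It passed in 0 markers and in 0 of all tested genes with limma (0%), while 2 markers and 1659 genes had an unadjusted p under 0.05. The 2 markers were Stab2, at -0.59 (SE 0.210, adjusted p = 0.282), and Stab1, at -0.49 (SE 0.215, adjusted p = 0.341). Interaction values were negative in 9 of 10 markers and in 68.4% of all tested genes. The marker median was -0.46, beside -0.12 for all genes. Lyve1 had -0.56 (SE 0.299) and Clec4g 0.04 (SE 0.203). An unequal effect of arsenite on the diets was therefore not detected for any marker.

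Averaged over both diets, arsenite gave 0 called markers with limma, beside 0.568% of all tested genes called. At an unadjusted p under 0.05 stood 7 of 10 markers and 1847 of all 11963 tested genes. All 10 differences were negative, as were 71.7% of those of all tested genes. Stab2 had -0.43 (SE 0.105, adjusted p = 0.0929) and Clec4g -0.03. Leaving out 1 array at a time, the Stab2 difference ran from -0.55 without HFD replicate 2 to -0.32 without HFD replicate 1. Averaged over both waters, the high-fat diet lowered 3 markers, Stab2 by 0.48 (SE 0.105, adjusted p = 0.0207), Dnase1l3 by 0.49 (SE 0.128, adjusted p = 0.0372) and Tek by 0.36 (SE 0.0951, adjusted p = 0.0386). Of all tested genes 7.65% passed, 4.66% as lower. Clec4g was higher by 0.25 without passing (SE 0.102, adjusted p = 0.142). Both averages contain the HFD+As arrays. Without HFD+As replicate 1, HFD replicate 2, LFD+As replicate 2 or either LFD array, 0 markers passed for the high-fat diet over both waters, while without HFD replicate 1, 7 did. Calls among all tested genes, 915 with every array, numbered 87 to 366 in the fits with 0 markers and 1496 without HFD replicate 1. After removal of the span trend 617 tested genes and 0 markers passed, with an adjusted p of 0.0542 for Stab2, 0.0609 for Dnase1l3 and 0.101 for Tek. With no filter on dim genes 0 markers and 172 of 19938 genes passed.

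Likeness between markers over the 8 arrays is given as a description, and the arrays of all 4 groups enter it together. The most alike pair was Stab2 and Dnase1l3, with Pearson r of 0.988. Stab1 had r of 0.994 with the mean of the other 9 markers, Cdh5 0.984, Dnase1l3 0.963, Kdr 0.962, Stab2 0.951, Pecam1 0.933, Eng 0.919 and Tek 0.90. Lyve1 had 0.493 and Clec4g -0.185. With the span trend removed, Stab1 kept 0.982 and Pecam1 dropped to 0.641. Among genes that are not markers, Pcnx3 (r of 0.992), Mdc1 (0.990), Rbms2 (0.987), Myo1e (0.987), Sbf1 (0.987) and Bsdc1 (0.987) followed the mean of the markers most closely. Such likeness was common: 1153 of 11953 other tested genes, 9.65%, had r of at least 0.9, and 227, 1.90%, after removal of the trend.

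Other endothelial genes were followed in lists, to be read against the 12.4% of all tested genes that passed as lower in HFD+As against LFD. After removal of the span trend that share was 4.92%. Of 20 other sinusoidal genes, 5 fell in HFD+As against LFD and 0 rose. Differences were negative in 19 of the 20, beside 66.6% of all tested genes, with a list median of -0.36. Ehd3, which serves membrane recycling in endocytosis, had 10.67 and 10.94 in HFD+As, 11.37 and 10.98 in HFD, 11.25 and 11.56 in LFD+As, and 11.72 and 11.63 in LFD. Its decrease of -0.87 against LFD (SE 0.154, adjusted p = 0.00554) was close in size to those of Stab2 and Dnase1l3. Mrc1, the mannose receptor, fell by 0.53 (SE 0.170, adjusted p = 0.0488). F8, coagulation factor VIII, fell by 0.52 (SE 0.151, adjusted p = 0.0338) and Dpp4, a surface peptidase that hepatocytes also make, by 0.51 (SE 0.137, adjusted p = 0.0256). Gpr182, an atypical chemokine receptor and the fifth of the called genes, fell by 0.46 (adjusted p = 0.0445) and was picked after its value was seen. Wnt2 and Wnt9b, Wnt ligands from central endothelium, both differed by 0.00, and Gata4, a master regulator of sinusoidal identity, by -0.35 (adjusted p = 0.0703). These 3 were named for their roles after their values were seen. With the span trend removed, 2 of the 20 passed, Ehd3 at -0.74 (adjusted p = 0.0152) and Gpr182 at -0.55 (adjusted p = 0.0359), and the median was -0.19. Mrc1, F8 and Dpp4 no longer passed, with adjusted p-values of 0.253, 0.232 and 0.152.

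The pathways of the receptors were covered by 2 lists. The first held 13 genes for ligands and co-receptors of vascular endothelial growth factors and angiopoietins. Pgf, Angpt1 and Angpt2 were too dim to be tested, so no angiopoietin ligand was among the 10 tested genes. Of these 10, 2 fell in HFD+As against LFD. All 10 differences were negative, beside 66.6% of all tested genes, with a median of -0.25 and -0.06 after removal of the trend. Ptprb, the phosphatase that restrains Tie2, had 9.55 and 9.57 in HFD+As, 10.22 and 9.76 in HFD, 10.06 and 10.22 in LFD+As, and 10.31 and 10.20 in LFD. Its decrease was -0.70 (SE 0.145, adjusted p = 0.00941). Vegfa, the ligand of Kdr, fell by 0.51 (SE 0.122, adjusted p = 0.0152). Flt1, the other receptor of that ligand, had -0.27 (adjusted p = 0.149) and Tie1, the relative of Tie2, -0.16 (adjusted p = 0.390), both named for their roles after their values were seen. Ptprb and Vegfa still passed after removal of the trend, at -0.44 (adjusted p = 0.0423) and -0.43 (adjusted p = 0.0333). Of 13 genes of bone morphogenetic protein and transforming growth factor beta signalling, 4 fell and 0 rose, with a median of -0.16. Bmpr2, a type 2 receptor of the complex that Eng assists, had 9.69 and 10.03 in HFD+As, 10.47 and 10.13 in HFD, 10.57 and 10.56 in LFD+As, and 10.71 and 10.68 in LFD. Bmpr2 fell by 0.83 (SE 0.142, adjusted p = 0.00518). Tgfbr2 fell by 0.58 (adjusted p = 0.0130), the inhibitor Smad7 by 0.45 (adjusted p = 0.0292) and the transducer Smad5 by 0.40 (adjusted p = 0.0489). Acvrl1, the type 1 partner receptor, had -0.09 (adjusted p = 0.660) and the target Id1 0.31 (adjusted p = 0.283), and these also were named for their roles after their values were seen. After removal of the trend 1 of the 13 passed, Bmpr2 at -0.58 (adjusted p = 0.0191), and the list median was -0.10. Tgfbr2, Smad7 and Smad5 no longer passed, with adjusted p-values of 0.0830, 0.136 and 0.194.

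Genes of endothelium in general were covered by further lists. Of 23 surface and junction genes, 2 fell in HFD+As against LFD, the guidance receptor gene Robo4 by 0.51 (SE 0.130, adjusted p = 0.0200) and the adrenomedullin receptor gene Calcrl by 0.45 (SE 0.130, adjusted p = 0.0341). The median of this list was -0.11, close to the -0.10 of all tested genes, and 2 of 23 is a smaller share than the 12.4% of all tested genes. Robo4 still passed after removal of the trend, at -0.46 (adjusted p = 0.0281), Calcrl did not (adjusted p = 0.218), and Icam1 and Vcam1, adhesion molecules for leukocytes, passed as higher, at 0.43 (adjusted p = 0.0466) and 0.39 (adjusted p = 0.0458). In the signals as deposited Icam1 and Vcam1 rose in HFD against LFD, Icam1 by 0.78 (SE 0.133, adjusted p = 0.0200) and Vcam1 by 0.73 (SE 0.121, adjusted p = 0.0190), where 0.343% of all tested genes passed as higher, and both passed there after removal of the trend too (adjusted p = 0.0337 for Icam1 and 0.0324 for Vcam1). Of 17 endothelial transcription factor genes, 4 fell in HFD+As against LFD with a median of -0.08 for the list. Hhex, a homeobox gene that hepatocytes also express, fell by 0.80 (SE 0.161, adjusted p = 0.00858), Foxo1 by 0.56 (adjusted p = 0.0172), Maf by 0.56 (adjusted p = 0.0170) and the ETS gene Elk3 by 0.54 (adjusted p = 0.0195). The endothelial ETS genes Erg, Fli1 and Ets1 had -0.24, -0.08 and -0.05, and did not pass; they too were named for their roles after their values were seen. With the span trend removed 2 of the 17 passed, Hhex at -0.81 (adjusted p = 0.0232) and Maf at -0.61 (adjusted p = 0.0245), while Foxo1 (adjusted p = 0.0883) and Elk3 (adjusted p = 0.0788) did not. Of 4 lymphatic genes Reln fell by 0.53 (adjusted p = 0.0371), and of 7 portal and arterial genes Notch1 fell by 0.49 (adjusted p = 0.0496). Once the trend was removed, 0 of these 4 and 0 of these 7 passed, with an adjusted p of 0.404 for Reln and 0.190 for Notch1.

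**Figure D5:**
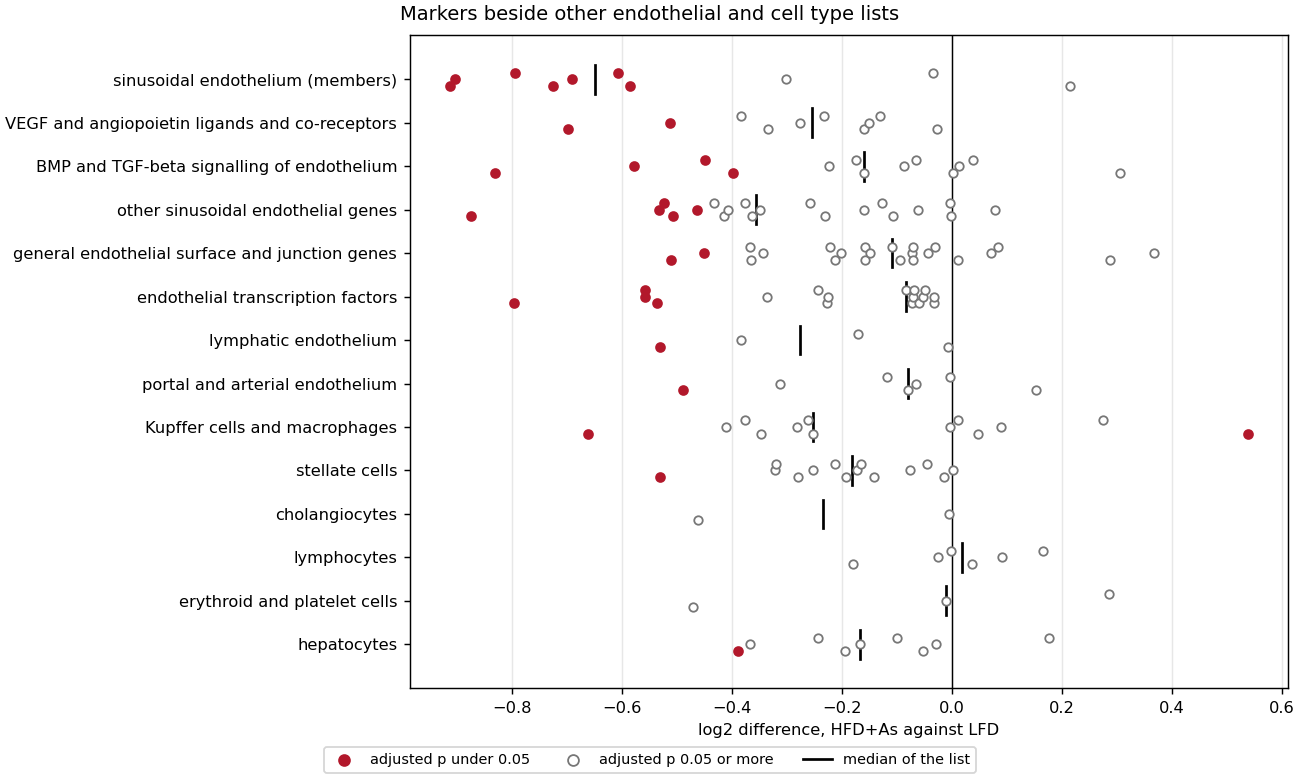
Log2 difference of HFD+As against LFD (horizontal axis) for each tested gene of the marker list and 13 other lists; filled points have an adjusted p under 0.05 and black bars are list medians. The markers have a median of -0.65, below that of every other list drawn. Markers and lists were chosen with earlier results of these data known, so this order is only a description.

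Markers of other liver cells were measured beside the endothelial genes. In HFD+As against LFD, 12.4% of all tested genes passed as lower, and 430 of 11963 passed as higher. Of 13 Kupffer cell and macrophage genes, Csf1r fell by 0.66 in HFD+As against LFD (SE 0.183, adjusted p = 0.0283) and Marco rose by 0.54 (SE 0.114, adjusted p = 0.00997), with a median of -0.25. Once the trend was removed, Csf1r had -0.53 and no longer passed (adjusted p = 0.0752), Marco still passed at 0.69 (adjusted p = 0.00780), and the median was -0.10. The log2 of their summed signal was 13.34 to 13.64 in HFD+As, 13.81 to 13.87 in HFD, 13.38 to 13.67 in LFD+As, and 13.59 to 13.65 in LFD. Against HFD, 3 of the 13 fell in HFD+As, Cd163 by 0.62 (adjusted p = 0.0416), Adgre1 by 0.61 (adjusted p = 0.0404) and Cd5l by 0.59 (adjusted p = 0.0368), where 3.25% of all tested genes passed as lower. With the span trend removed 0 of the 13 passed against HFD, with adjusted p-values of 0.140, 0.185 and 0.126 for these 3. Of 14 stellate cell genes 1 fell against LFD, Reln, which is shared with the lymphatic list, and the median was -0.18, or -0.03 with the span trend removed, when 0 of the 14 passed. Their summed log2 signal was 13.45 to 13.46 in HFD+As, 13.63 to 13.67 in HFD, 13.61 to 13.65 in LFD+As, and 13.68 to 13.75 in LFD. The same sum over the 10 markers was 12.85 to 12.99 in HFD+As, 13.05 to 13.46 in HFD, 13.08 to 13.24 in LFD+As, and 13.18 to 13.34 in LFD. Clec4g, the brightest marker, weighs most in that sum and did not fall against LFD. The 9 hepatocyte genes, which mark the labelled tissue, had a sum of 16.99 to 17.06 in HFD+As, 17.07 to 17.16 in HFD, 17.13 in LFD+As, and 17.14 to 17.15 in LFD. Against LFD, 8 of these 9 had negative differences in HFD+As, with a median of -0.17, or -0.06 with the span trend removed. Of these 9, Cps1 fell by 0.39 against LFD (adjusted p = 0.0391), and with the span trend removed it had -0.13 (adjusted p = 0.384). In HFD+As against LFD, among 2 cholangiocyte, 6 lymphocyte and 3 erythroid and platelet genes tested, 0 passed with limma, and 2, the cholangiocyte gene Sox9 and the erythroid gene Alas2, had an unadjusted p under 0.05. Against LFD+As, Sox9 fell in HFD+As by 0.56 (adjusted p = 0.0369) and the hepatocyte gene Hnf4a by 0.41 (adjusted p = 0.0465), where 8.43% of all tested genes passed as lower. With the span trend removed neither passed (adjusted p = 0.0618 for Sox9 and 0.263 for Hnf4a). The part of other cell types in the marker differences was not tested.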

How the data were processed

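RNA of 8 pools of 5 mouse livers was measured on Affymetrix arrays, 2 pools in each of 4 groups taken from the sample labels. For each transcript cluster the authors deposited a log2 signal, for which the submitters' processing notes name Affymetrix Expression Console 1.0. The background correction and normalization are not given in the sources used here. The array medians of 7.08 to 7.18 were nearly equal, and no further normalization was applied.

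Of the clusters, 21789 had 1 gene symbol. The cluster with the highest mean over the 8 arrays stood for its gene, and the 60% of genes with the highest means, above 6.975, were tested. One limma 3.58.1 fit (R 4.3.3) of 4 group means to all 8 arrays had 4 residual and 9.32 prior degrees of freedom. P-values were adjusted by Benjamini-Hochberg over all 11963 genes per comparison (threshold 0.05). Precision is limited by the 2 arrays per group, with a median SE of 0.127 for a difference.

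Genomic spans came from RefSeq (GRCm38.p6) for 11958 tested genes, and a loess curve (span 0.5) on log10 span was subtracted from each array as an alternative. Other alternatives changed the filter, the normalization, the weights, the prior and the arrays used. The fit was tested on simulated data. The markers and lists were chosen with earlier results of these data known. The rule for names took all markers, the 6 genes most like their mean, and up to 4 called genes per list and comparison, or up to 2 with the smallest unadjusted p where none passed. Further list genes, chosen after their values were seen, are marked so where they are named. Not every called list gene that the rule allowed is named, chiefly in comparisons other than HFD+As against LFD.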

Additional observations from a re-analysis of the deposited data

How the results depend on the processing

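No result changed its direction past the threshold. Of the counts of called markers over all comparisons and alternatives, 110 stayed within 1.5 times the reported count and 39 did not, and of the medians 135 stayed within the spread between replicates and 14 did not. Many medians could not move, since the prior, the block and arrays outside a comparison do not enter its differences of group means. The counts for HFD against LFD and for LFD+As against LFD were 0 in every fit. The tally is therefore no measure of how robust the results are. With the span trend removed, the medians were -0.46 for HFD+As against LFD, -0.31 for HFD+As against LFD+As and -0.28 for the interaction, and the calls were 0 for HFD+As against HFD, 0 for HFD+As against LFD+As and 0 for the high-fat diet over both waters. With arrays centred on their medians, the medians were -0.33 for HFD+As against HFD and -0.27 for the interaction, and the calls 0 and, for HFD+As against LFD+As, 1. Over all tested genes the calls with centring were 68 for HFD+As against HFD and 670 for HFD+As against LFD+As. Centring put the median of all genes for HFD+As against LFD at 0.04, against -0.10 as deposited, and that of the markers at -0.51. Of the genes called there, 735 of 1574 were lower with centring and 588 of 1135 with the trend removed, against 1479 of 1909 as deposited.

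For HFD+As against HFD the calls were 0 with no filter, 4 with 40% of genes tested, 0 with quantile normalization, 5 with an intensity trend and robust prior, 0 with array weights and 3 with the 2 groups fitted alone. Over all tested genes the calls numbered 29, 504, 104, 751, 49 and 402 in the same order, against 434 as reported above. With no filter 19938 genes were tested, and with the 40% filter 7975. With no filter there was 1 call for HFD+As against LFD+As and 0 for the high-fat diet over both waters. Of all genes 165 and 172 passed there, against 1227 and 915 as reported above. Leaving out 1 array at a time, calls ranged from 1 to 7 for HFD+As against LFD, 0 to 8 for HFD+As against HFD, 0 to 7 for HFD+As against LFD+As, 0 to 2 for arsenite over both diets and 0 to 7 for the high-fat diet over both waters. Medians ranged from -0.32 to 0.10 for HFD against LFD, -0.77 to -0.31 for HFD+As against HFD and -0.67 to -0.17 for the interaction. A group left with 1 array was assumed to vary like the others. The cause of these changes was not tested.

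A pairing of arrays by replicate number was not evident, as the gaps between replicates correlated at -0.217 to 0.179 between groups across genes. Such correlations cannot exclude it, and replicate 1 was higher in all 10 markers in both HFD and LFD. With the replicate number as a block, 7 markers passed for HFD+As against LFD, beside 1691 of all tested genes, 1296 of them lower. With the block and the trend removed, calls were 4, 0, 0 and 0 for HFD+As against LFD, HFD, LFD+As and for the high-fat diet over both waters. Over all tested genes the calls numbered 849 (440 of them lower), 52, 24 and 378 in the same order. Marker medians were then -0.46, -0.31 and -0.28 for HFD+As against LFD, against LFD+As and for the interaction. No detection calls were used here, so how far a dim cluster lies above background is unknown.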
